A study of Homo sapiens with 8 samples.

Results

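The genes described here are AHR, AHRR, ARNT, HIF1A, EPAS1, CLOCK, PER1, PER2, BHLHE40 and BHLHE41, 10 members of the dioxin-receptor, hypoxia and clock families, as they appear in the Cut&Run peak list of 1 antibody, anti-PML-RARA. Every peak was taken that carried the symbol of a member or of BHLHE40-AS1, the antisense gene at the BHLHE40 promoter, together with every peak without a symbol whose centre lay within 50 kb of such a peak. This gave 25 of the 15412 peaks of the list, 9 with a symbol (labelled) and 16 without (unlabelled). U937-PR9 is a line of the monocytic U937 cells that carries a PML::RARA transgene under a zinc-inducible promoter, so that both the induced and the uninduced cells carry the transgene. Induced cells received 100 μM ZnSO4 for 5 h and uninduced cells received water for 5 h, and each was profiled with an anti-PML-RARA and an anti-RARA antibody in 2 replicates, 8 libraries in all. The list analysed is that of the anti-PML-RARA antibody after induction. Its peaks were called over paired control experiments. The lists of uninduced cells and of the anti-RARA antibody were not analysed here, so no peak is compared between conditions or antibodies. In Cut&Run, a nuclease tethered to the antibody releases the DNA around the bound protein for sequencing.

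AHR, HIF1A, EPAS1, CLOCK and ARNT are transcription factors with a basic helix-loop-helix (bHLH) domain, which binds DNA, and a PAS domain, which holds partner proteins or ligands. AHR responds to aromatic ligands and HIF1A and EPAS1 to low oxygen, all of them as dimers with ARNT, while AHRR competes with AHR. CLOCK with its partner ARNTL (BMAL1) binds E-box sequences and drives the genes of PER1 and PER2, PAS proteins without a DNA-binding domain that feed back to repress CLOCK, and BHLHE40 and BHLHE41 are bHLH repressors that bind the same E-boxes. PML::RARA joins PML to the retinoic acid receptor RARA, whose DNA-binding domain recognises pairs of nuclear receptor half-sites.

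The stretches of sequence that the results below turn on were read from hg19 on the strand of the member, 5′ to 3′. Each one covers 60 bp to both sides of the peak's apex, which is the midpoint of its interval of largest signal, and was extended to include any match named here within 200 bp of the apex. Capitals mark the matches on either strand, namely the E-box CACGTG, the nuclear receptor half-site AGGTCA (complement TGACCT), the cAMP response element TGACGTNA and the B box of tRNA gene promoters, GTTCGANNC. The first group holds the E-boxes of the AHR, HIF1A and PER1 promoter peaks, the second the highest peak downstream of BHLHE40, and the third other peaks of the PER1 locus.
AHR peak (chr7:17338101-17338235, plus strand): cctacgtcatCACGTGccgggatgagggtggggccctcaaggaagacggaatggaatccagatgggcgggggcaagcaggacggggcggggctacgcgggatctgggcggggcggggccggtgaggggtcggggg
HIF1A peak (chr14:62161952-62162177, plus strand): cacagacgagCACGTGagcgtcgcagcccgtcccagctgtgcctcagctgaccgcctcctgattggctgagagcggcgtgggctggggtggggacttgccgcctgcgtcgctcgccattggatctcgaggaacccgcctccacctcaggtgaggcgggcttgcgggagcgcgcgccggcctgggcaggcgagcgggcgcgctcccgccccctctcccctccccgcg
PER1 proximal promoter (chr17:8055736-8055905, minus strand): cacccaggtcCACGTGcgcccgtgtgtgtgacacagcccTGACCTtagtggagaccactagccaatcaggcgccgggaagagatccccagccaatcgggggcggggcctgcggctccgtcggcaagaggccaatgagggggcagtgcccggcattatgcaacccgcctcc
PER1 distal promoter (chr17:8059847-8060056, minus strand): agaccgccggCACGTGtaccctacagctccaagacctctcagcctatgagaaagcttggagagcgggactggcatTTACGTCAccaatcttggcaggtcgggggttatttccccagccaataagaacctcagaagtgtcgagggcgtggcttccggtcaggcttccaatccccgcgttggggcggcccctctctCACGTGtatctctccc
BHLHE40 downstream peak (chr3:5053322-5053536, plus strand): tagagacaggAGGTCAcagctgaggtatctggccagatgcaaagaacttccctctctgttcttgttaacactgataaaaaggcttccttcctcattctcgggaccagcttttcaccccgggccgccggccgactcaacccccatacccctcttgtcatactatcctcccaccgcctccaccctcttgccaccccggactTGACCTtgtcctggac
PER1 peak between the promoters (chr17:8057610-8057730, minus strand): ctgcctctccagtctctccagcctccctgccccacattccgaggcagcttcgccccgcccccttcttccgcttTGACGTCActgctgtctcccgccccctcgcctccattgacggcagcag
PER1 locus, peak next to ALOXE3 (chr17:8023552-8023672, minus strand): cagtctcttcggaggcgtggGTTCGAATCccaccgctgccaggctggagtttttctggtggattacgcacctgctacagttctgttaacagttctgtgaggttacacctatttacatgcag
PER1 locus, peak downstream of PER1 (chr17:8042007-8042229, minus strand): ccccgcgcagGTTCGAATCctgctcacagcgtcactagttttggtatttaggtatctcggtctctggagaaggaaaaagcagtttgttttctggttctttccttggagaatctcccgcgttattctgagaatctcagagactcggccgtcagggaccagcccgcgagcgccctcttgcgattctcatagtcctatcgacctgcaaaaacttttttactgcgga
PER1 locus, peak at MIR3676 (chr17:8090406-8090549, minus strand): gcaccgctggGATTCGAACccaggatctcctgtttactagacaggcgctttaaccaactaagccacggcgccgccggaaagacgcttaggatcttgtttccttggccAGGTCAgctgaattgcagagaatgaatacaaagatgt

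Of the 10 members, 6 had a peak with their own symbol, namely AHR, HIF1A, EPAS1, CLOCK, PER1 and PER2. Among all 20090 protein-coding genes, 6025 did, a background of 30%. AHRR, ARNT, BHLHE40 and BHLHE41 had none. With every peak over an annotated start site counted, whatever its symbol, BHLHE40 was added and the count was 7 of 10. The background was 38.3% of the protein-coding genes. The members were chosen with earlier results of these data known, so these shares are a description and not a test. PER1 alone had 3 labelled peaks, as 58 of the 6546 genes named in the list had 3 or more, a background of 0.886%. The list gives each peak a single value, without replicate values, so neither replicate error nor a test between samples can be given, and the comparisons below are of peaks within the list.

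Peak height is the largest signal within a peak and total signal the sum over its bases, both in the units of the signal track. The 9 labelled peaks had a median height of 35 (range 18 to 60), against 26 for all 7169 labelled peaks of the list. Their median width was 1672 bp (356 to 3798 bp), against 1108 bp, and their median total signal was 17360, against 10082. Of the 9 labelled peaks, 8 were wider than the median of the whole list, 829.5 bp, and so were 70.9% of all labelled peaks. For height, 6 of the 9 lay above the list's median of 25, as did 52.3% of all labelled peaks. The median of the 9 was above 88.2% of the list by width and 85.7% by total signal, and above 77.9% by height. The 16 unlabelled peaks had a median height of 28.5 and a median width of 762 bp, against 23 and 634 bp for all 8243 unlabelled peaks. Neighbouring peaks at 1 locus, such as the 9 at PER1 and the 7 at BHLHE40, are not independent of each other.

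**Figure D1:**
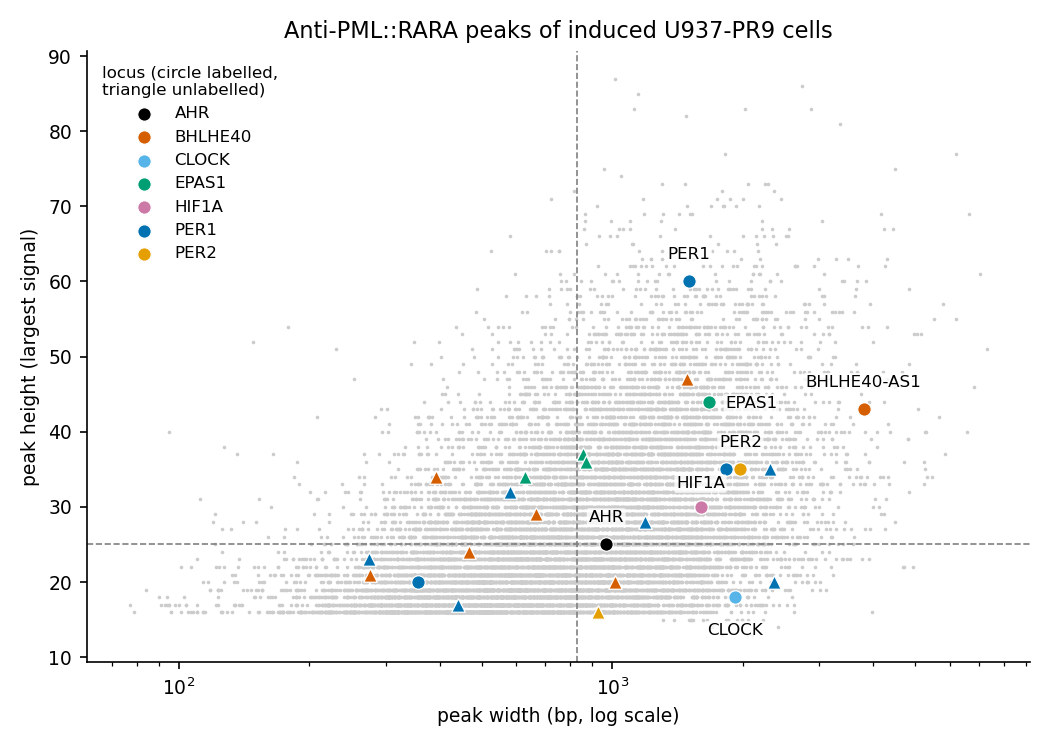
Height (largest signal, linear axis) against width (bp, log axis) of all 15412 peaks, in grey, and of the 25 peaks at the members, in colour by locus, with circles for labelled and triangles for unlabelled peaks and dashed lines at the medians of the list. The BHLHE40-AS1 peak lies far to the right at 3798 bp, the PER1 distal promoter peak is the highest at 60, and the CLOCK peak is wide at 1920 bp but low at 18.

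AHR (ENSG00000106546), the ligand-activated receptor, had 1 labelled peak at chr7:17338008-17338975, and an apex at 101 bp before the canonical start (17338276). Its height of 25 (rank 7226, shared by 591 peaks) was the median of the list, its width of 968 bp ranked 6270, and its total signal was 9648. Of the members' labelled peaks it was the closest to the medians of the list, above 49.3% of all peaks by height and 59.3% by width. No unlabelled peak lay within 50 kb. The annotated gene extends far upstream of the canonical start, from position 16955983 to 17385776, and 3 more unlabelled peaks lay over that upstream stretch, 322784 to 369253 bp from that start, with heights of 16, 27 and 16. AHRR (ENSG00000063438, chromosome 5, 321829 to 438406), the repressor of AHR, had no labelled peak. It held 1 unlabelled peak of height 19 and width 414 bp in intron 4, at chr5:392562-392975. ARNT (ENSG00000143437, chromosome 1, 150782189 to 150849184), the common partner of AHR and the HIF proteins, had no peak over its body. The nearest one lay 49366 bp away and carried the symbol of SETDB1, with a height of 26.

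HIF1A (ENSG00000100644), the oxygen-regulated subunit found in most cell types, had 1 labelled peak at chr14:62161638-62163235 and an apex at 114 bp before the start (62162231). It had a height of 30 (rank 4820), a width of 1598 bp (rank 2116) and a total signal of 16188, above 83.5% of all peaks. It was the only peak over the gene, and beyond the 3′ end lay a low peak of height 16 with the symbol of the antisense gene HIF1A-AS2. EPAS1 (ENSG00000116016), which encodes HIF-2α, had 1 labelled and 3 unlabelled peaks. The labelled peak, at chr2:46523283-46524954 and with an apex 219 bp before the canonical start, had a height of 44 (rank 1234), a width of 1672 bp (rank 1816) and a total signal of 20538, above 91.0%, 88.2% and 90.3% of all peaks. The 3 unlabelled peaks had similar heights to each other. The peak 19701 bp upstream of the canonical start (chr2:46504503-46505132) reached 34 (rank 3401) over 630 bp (rank 10153). In intron 1, the peak 18201 bp downstream (chr2:46542256-46543113) reached 37 (rank 2529) over 858 bp (rank 7382). The second intronic peak, 31118 bp downstream (chr2:46555153-46556022), reached 36 (rank 2815) over 870 bp (rank 7259). Each of the 4 EPAS1 peaks was higher than 75.9% or more of the list, whereas HIF1A had the promoter peak alone. A further unlabelled peak in EPAS1 intron 2, of height 22, lay beyond 50 kb from the promoter peak.

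CLOCK (ENSG00000134852), the DNA-binding activator of the clock with ARNTL, had a low and wide peak at chr4:56411851-56413770. Its height of 18 ranked 12401, above only 13.7% of the peaks, whereas its width of 1920 bp ranked 1217, above 92.1%. Its total signal of 16348 exceeded that of 83.8% of the peaks. The interval listed for the largest signal spanned 1055 bp, compared with 2 to 28 bp in the other 8 labelled peaks. Given the total signal of the peak, the signal cannot have stayed at its largest value over all of that interval, so its midpoint, 130 bp downstream of a start site in intron 1, need not be a place of largest signal. PER2 (ENSG00000132326), a repressor of CLOCK, had its labelled peak at chr2:239196339-239198312, 153 bp upstream of the nearest PER2 start site. It had a height of 35 (rank 3088), a width of 1974 bp (rank 1107) and a total signal of 17360. The PER2 and CLOCK peaks had nearly equal widths and total signals, and a height of 35 against 18. In PER2 intron 9, an unlabelled peak (chr2:239172011-239172939, 929 bp, rank 6657) had a height of 16, which placed it above 0.13% of the list. Its apex lay 640 bp upstream of an internal PER2 start site.

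**Figure D2:**
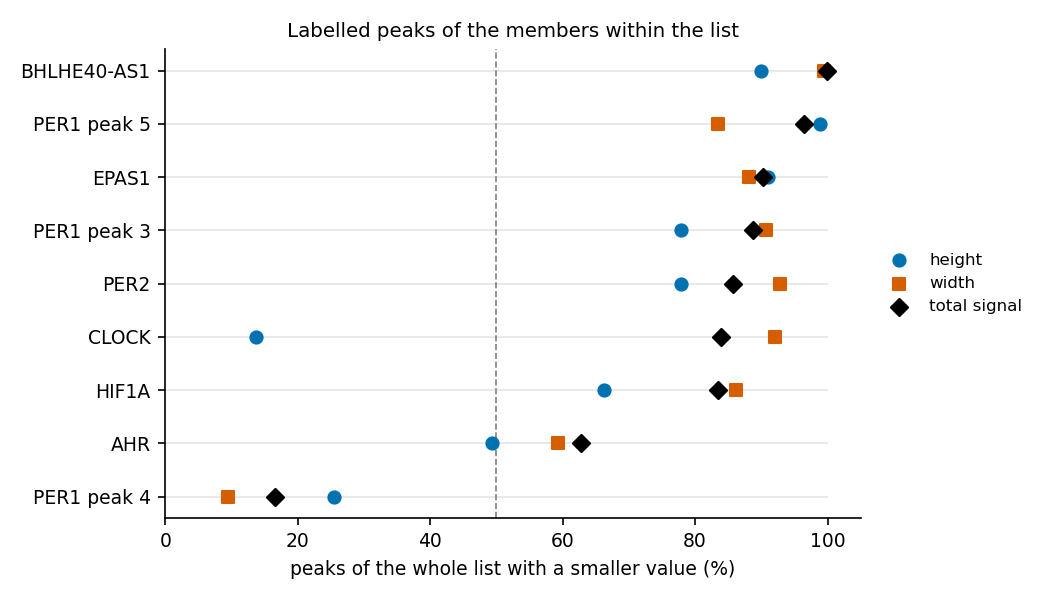
Share of the 15412 peaks (%) with a smaller height (circles), width (squares) or total signal (diamonds) than each of the 9 labelled peaks, ordered by total signal, with a dashed line at 50%. CLOCK is above 13.7% by height and 92.1% by width, BHLHE40-AS1 is above 99.5% by width and 99.9% by total signal, and PER1 peak 5 is the distal promoter peak, PER1 peak 3 the proximal one and PER1 peak 4 the one between them.

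PER1 (ENSG00000179094, minus strand of chromosome 17, 8043790 to 8059824), the other period repressor, had 9 of the 25 peaks, 3 labelled and 6 unlabelled, the most of the members within 50 kb. Over the gene itself it had 3, against 4 each at AHR and EPAS1, whose annotated genes are far longer. The highest covered the distal start site at chr17:8059192-8060692, with its apex 160 bp upstream of that start and 4262 bp upstream of the canonical start. Its height of 60 ranked 143, above 98.9% of all peaks, with a width of 1501 bp (rank 2553) and a total signal of 29113 (rank 551). The proximal promoter peak, at chr17:8054425-8056257 with its apex 43 bp upstream of the nearest start, had a height of 35 (rank 3088), a width of 1833 bp (rank 1425) and a total signal of 19298. Between them, a small labelled peak at chr17:8057522-8057877 had a height of 20 (rank 10691), a width of 356 bp (rank 13933) and a total signal of 3352. The distal promoter peak was higher than the proximal one although it was narrower. An unlabelled peak 2460 bp upstream of the distal start (chr17:8061765-8062344) reached 32 (rank 4034) over 580 bp (rank 10857).

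The other 5 unlabelled peaks of the PER1 locus lay at or between neighbouring genes. The peak next to ALOXE3 (chr17:8023396-8025751) was 20 high (rank 10691) and 2356 bp wide (rank 555), with its apex 1247 bp upstream of the ALOXE3 start, and it overlapped HES7. The peak 3442 bp from the nearest PER1 start, beyond the 3′ end of the gene (chr17:8041967-8043157), reached 28 (rank 5666) over 1191 bp (rank 4378). The peak at MIR3676 (chr17:8089152-8091456) had a height of 35 (rank 3088), a width of 2305 bp (rank 603) and a total signal of 25927. The annotated MIR3676 gene began 27 bp downstream of the apex of this peak. A match to the tRNA B box lay 67 bp from the same apex. Whether MIR3676 is part of a tRNA gene was not tested. Of the 16 unlabelled peaks, those at ALOXE3 and MIR3676 were the widest. Low peaks lay at the start of SNORD118, a small nucleolar RNA gene within the 3′ UTR of TMEM107 (chr17:8076824-8077263, height 17, rank 13294, width 440 bp, rank 12855), and near AURKB (chr17:8103484-8103758, height 23, rank 8433, width 275 bp, rank 14798). Counting the other labelled PER1 peaks and the labelled peaks of other genes as well, each labelled PER1 peak had 12 peaks within 50 kb. This was more than 99.8% of all labelled peaks had. The neighbours with symbols of other genes were ALOXE3, VAMP2, TMEM107 and BORCS6, with heights of 17, 17, 25 and 45.

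BHLHE40 (ENSG00000134107, plus strand of chromosome 3, 5021122 to 5027008), a repressor that binds E-boxes, had no peak with its own symbol. The peak labelled BHLHE40-AS1, at chr3:5018551-5022348, covered the start sites of both BHLHE40-AS1 and BHLHE40. It was the widest and the strongest by total signal of the 25 peaks. Its width of 3798 bp ranked 81 and its total signal of 65928 ranked 19, while its height of 43 ranked 1386, above 89.9% of the list. Only 35 peaks of the list, itself included, were at least as wide and at least as high. The apex lay 2079 bp upstream of the BHLHE40 start site, in intron 1 of BHLHE40-AS1, so the largest signal was not at the start site that the peak covered. The 5 labelled peaks of the list most like it in log2 height and log2 width were those of CRYBG1, LRP8, CORO1A, VASP and CSK, with widths of 3907, 3741, 3529, 3587 and 4239 bp and heights of 44, 45, 42, 41 and 44. The total signal of these 5 was 37159 to 46716, below the 65928 of the BHLHE40-AS1 peak.

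Around BHLHE40 there were 6 unlabelled peaks, more than around 97.9% of all labelled peaks, for which the median was 0. One lay just upstream of the promoter peak (chr3:5017884-5018159, height 21, rank 9879, width 276 bp, rank 14790), and the other 5 lay downstream in intergenic sequence. The highest of these, 32314 bp downstream of the BHLHE40 start (chr3:5053002-5054490), reached a height of 47 (rank 890) with a width of 1489 bp (rank 2615). It was higher than the promoter peak, although its total signal of 12434 was lower. The others had heights of 29 (chr3:5028164-5028829, rank 5211, width 666 bp, rank 9671), 34 (chr3:5048422-5048813, rank 3401, width 392 bp, rank 13497), 24 (chr3:5054738-5055205, rank 7817, width 468 bp, rank 12489) and 20 (chr3:5067838-5068854, rank 10691, width 1017 bp, rank 5771). BHLHE41 (ENSG00000123095, chromosome 12, 26272963 to 26277970), the paralog, had no peak over its body or start. The nearest was an unlabelled peak of height 22 and width 337 bp, 5671 bp away. Over the gene there was 1 peak at BHLHE40 and none at BHLHE41, and within 10 kb of the gene there were 3 and 1. The summed total signal of 108466 over the 7 peaks at BHLHE40 takes in unlabelled peaks up to 50 kb from the promoter peak.

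**Figure D3:**
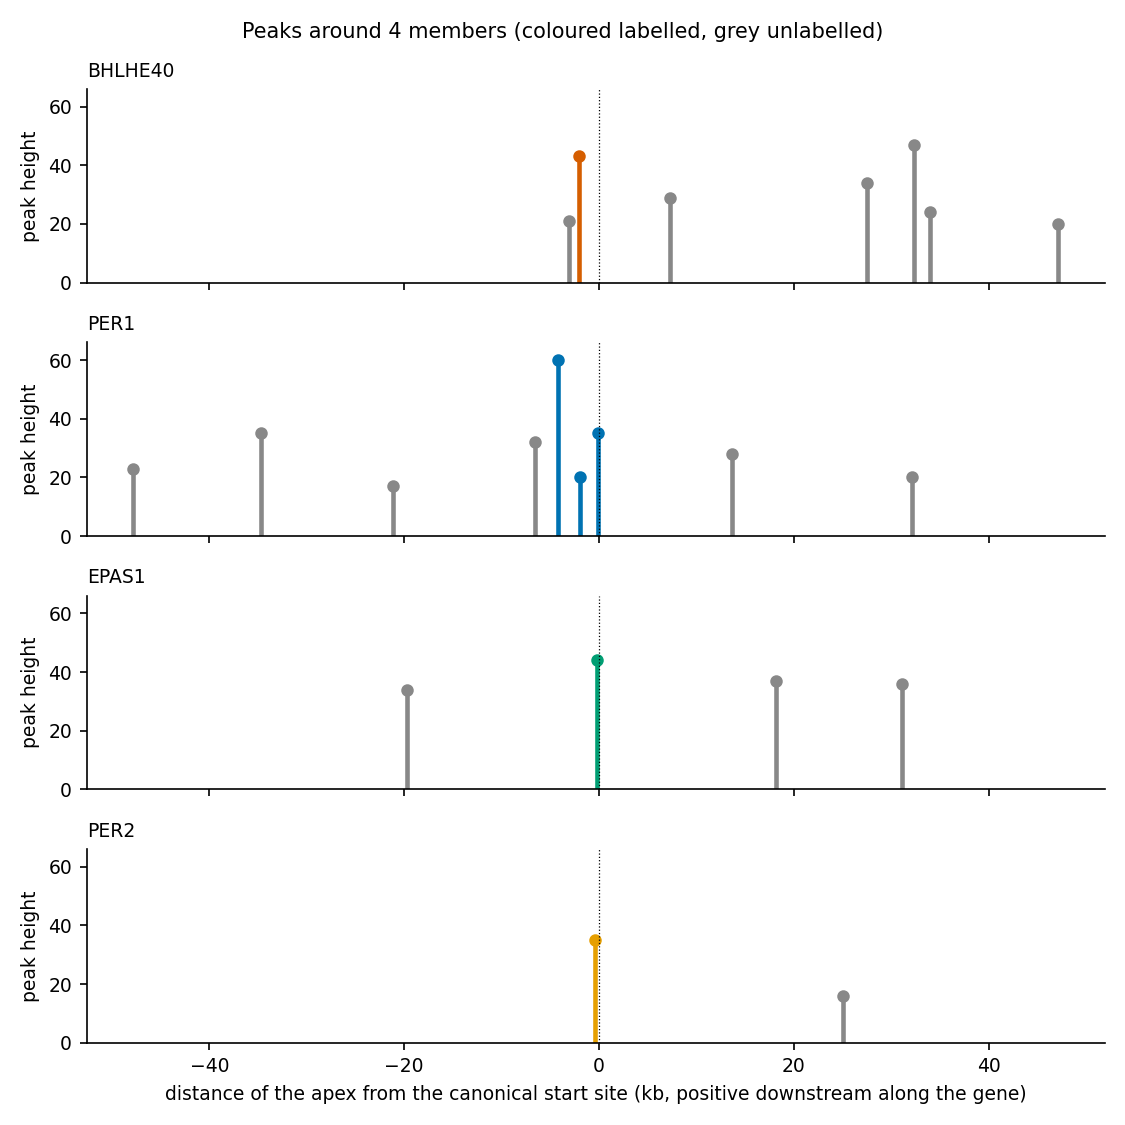
Height of each peak (largest signal) against the distance of its apex from the canonical start site (kb, positive downstream along the gene) for BHLHE40, PER1, EPAS1 and PER2, the members with more than 1 of the 25 peaks, with labelled peaks coloured and unlabelled peaks grey. At BHLHE40 5 of the 6 unlabelled peaks lie downstream and 1 of them, at 47, is above the promoter peak of 43, while at PER1 the distal promoter peak of 60 is the highest.

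AHR, HIF1A and CLOCK had no unlabelled peak within 50 kb, as was the case for 51.5% of all labelled peaks. EPAS1 had 3 and PER2 had 1. The summed total signal was 120885 over the 9 peaks of PER1, 108466 over the 7 of BHLHE40 and 48492 over the 4 of EPAS1, against 9648 to 22340 for AHR, HIF1A, CLOCK and PER2. These sums cover different lengths and numbers of peaks. The PER1 sum includes unlabelled peaks at or between neighbouring genes, among them 25927 at MIR3676 and 17227 next to ALOXE3.

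The labelled peaks lay in sequence rich in G and C, with a median of 68.1% within 200 bp of the apex, against 64.3% for all labelled peaks. The BHLHE40-AS1 peak was the lowest of the 9 at 53.4%, with 13 CpG dinucleotides in the window, where the median of the 9 was 35. The E-box CACGTG lay within 200 bp of the apex in 4 of the 9 labelled peaks, those of AHR, HIF1A and both PER1 promoters, compared with 12.6% of all labelled peaks. None of the 16 unlabelled peaks had one, against 9.22% of all unlabelled peaks. The E-box lay 62 bp from the apex at AHR, 153 bp at HIF1A and 96 bp at the proximal PER1 promoter, and the distal PER1 promoter held one on each side, 125 and 59 bp from the apex. The count depended on the window. Around the peak centre it was 1 of 9 (10.3% of all labelled peaks), and over whole peaks, which are longer where peaks are wide, it was 6 of 9 (26.7%), PER2 among them. A match is a run of letters and does not show that a factor was bound there.

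The HIF core ACGTG, which is contained in every CACGTG, was found near the apex in 5 of the 9 labelled peaks (33.4% of all labelled peaks), and the AHR:ARNT core GCGTG in 6 of 9 (60.5%). Around the centre ACGTG was in 2 of 9 (31.5%), and over whole peaks in 7 of 9 (62.6%). The general E-box CANNTG, which also covers CACGTG, was present in 9 of 9 and in 71.1% of all labelled peaks. The half-site AGGTCA was found near the apex in 6 of the 25 peaks (23.1% of the whole list), around the centre in 3 (22.8%) and over whole peaks in 10 (42.9%). Its variant AGTTCA was in 6 of 25 near the apex (16.1%), 7 around the centre (15.3%) and 13 over whole peaks (30.4%). Near the apex, AGGTCA was in 2 of 9 labelled peaks (16.6% of all labelled) and 4 of 16 unlabelled (28.8%). For AGTTCA these counts were 0 of 9 (10.3%) and 6 of 16 (21.0%). The high peak downstream of BHLHE40 had 2 AGGTCA half-sites near its apex, at 102 and 87 bp to either side. The BHLHE40-AS1 peak also had 2, at 124 and 143 bp to either side, and 4 over the whole peak. In neither peak did the 2 near the apex lie next to each other. Within 200 bp of the apex, 1 of the 9 labelled peaks had the ETS core GGAAGT (36.7% of all labelled peaks), 0 the AP-1 site TGANTCA (7.41%) and 0 the RUNX site TGTGGT (15.4%). Around the centre the counts were 2, 1 and 1 of 9 (32.0%, 5.76% and 14.6%), and over whole peaks 5, 2 and 3 of 9 (61.7%, 18.4% and 37.1%). Among the 16 unlabelled peaks they were 7 (47.1% of all unlabelled peaks), 1 (26.7%) and 5 (40.3%) near the apex.

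A further pair of motifs was searched after the PER1 sequences had been read, so their counts describe what was seen. The cAMP response element TGACGTNA lay 8 bp from the apex of the distal PER1 promoter peak and 18 bp from that of the small peak between the promoters, as 2 of 9 labelled peaks, against 5.02% of all labelled peaks. The B box GTTCGANNC, an internal promoter element of tRNA genes, was found near the apex of 3 of the 6 unlabelled PER1 peaks, those next to ALOXE3, downstream of PER1 and at MIR3676. In this window they were the only 3 of the 16 unlabelled peaks with it, against 1.83% of all unlabelled peaks. Around the centre 1 of 16 had it (1.12%), and over whole peaks 3 of 16 (2.35%). RefSeq, in its annotation of GRCh38, lists 5 tRNA genes from ALOXE3 to the far end of HES7, 2 between HES7 and PER1 and 4 between TMEM107 and BORCS6. Its coordinates are of another build and were not matched to the peaks.

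**Figure D4:**
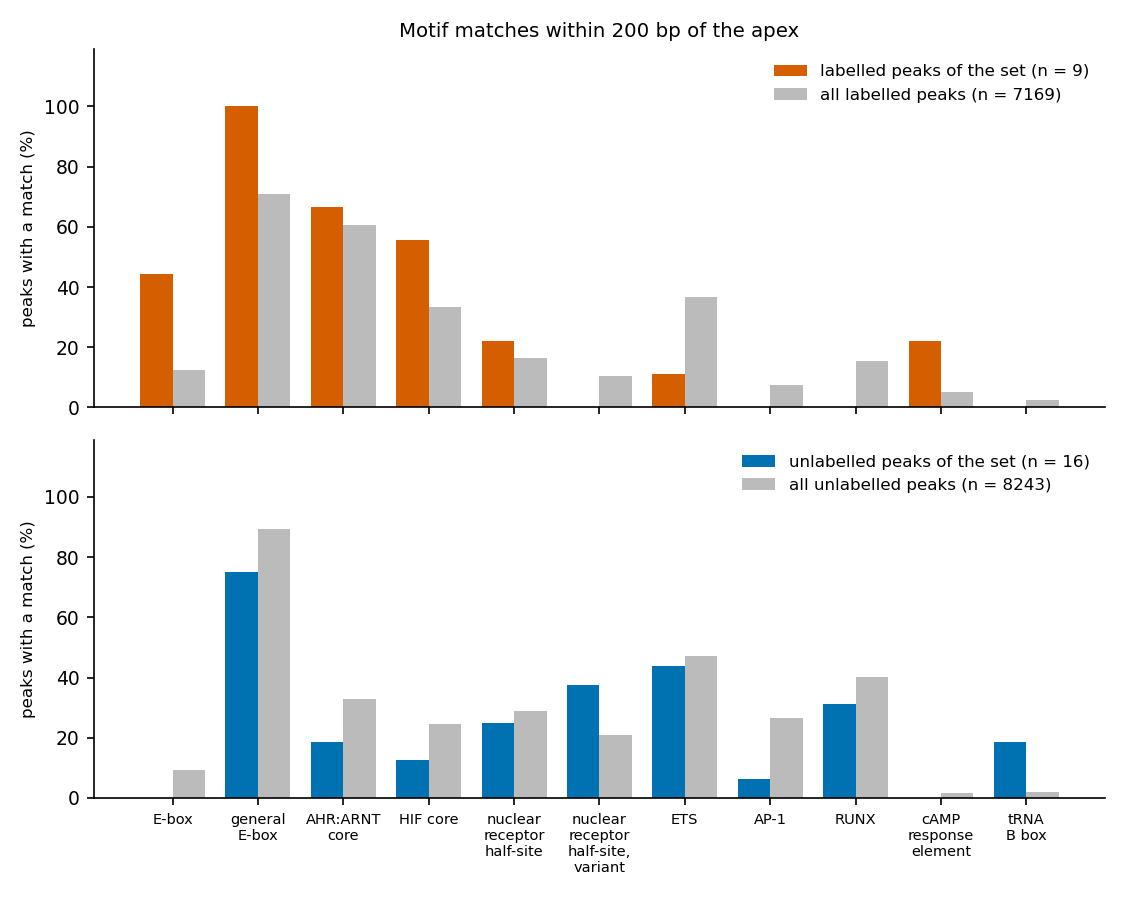
Share of peaks (%) with a motif match within 200 bp of the apex, for the 9 labelled (top) and 16 unlabelled (bottom) peaks of the members beside all labelled and all unlabelled peaks in grey. The E-box CACGTG is in 4 of 9 labelled and 0 of 16 unlabelled peaks, and the tRNA B box in 3 of 16 unlabelled peaks.

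Another 60 genes of the same pathways were counted, from a list chosen with earlier results of these data known. Of these, 33 (55%) had a peak with their symbol, against the background of 30%. With any peak over a start site counted, there were 37 of the 60 genes, against 38.3% of all protein-coding genes. Of 13 bHLH-PAS partners and paralogs, 2 had one. These were NCOA2, a coactivator with a PAS domain, of height 36 and width 2505 bp, and ARNTL, the partner of CLOCK, of height 17 and width 413 bp. The ARNTL peak did not cover an annotated start site. The genes without one included ARNT2, HIF3A, ARNTL2, NPAS2, SIM1 and SIM2. NCOA1 and NCOA3 had none with their symbol either, but each had a peak over a start site. Counted by peaks over a start site, the group stood at 3 of 13, namely NCOA1, NCOA2 and NCOA3. Of 9 AHR chaperones and targets, 6 had a labelled peak, among them CYP1B1, HSP90AA1, HSP90AB1, NQO1 and PTGES3. PTGES3, which encodes the co-chaperone p23, had the highest at 47, and next came HSP90AA1 with a peak of height 33, while the widest were another HSP90AA1 peak of 2550 bp and the HSP90AB1 peak of 2354 bp. CYP1A1 and CYP1A2, classical AHR targets, had none.

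Of 9 oxygen sensors and genes of HIF degradation, 6 had a labelled peak, namely EGLN1, EGLN2, HIF1AN, RBX1, VHL and TCEB1 (ELOC). EGLN2, a prolyl hydroxylase that marks HIF subunits for degradation, had a peak 49 high and 2037 bp wide, and RBX1, a subunit of the VHL ubiquitin ligase, one 46 high and 1422 bp wide. Of 11 HIF targets, 7 had a labelled peak, namely LDHA, NDRG1, PDK1, PFKFB3, PFKFB4, SLC2A1 and VEGFA. PFKFB4, a regulator of glycolysis, had 3 labelled peaks, the highest of 55, and NDRG1 had 2, the highest of 51 and the wider of 1931 bp. VEGFA, an angiogenic growth factor, had the widest peak of the group at 4937 bp (rank 24) with a height of 22. CA9, ADM, BNIP3 and ANKRD37 had none.

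Of 14 clock repressors, receptors and kinases, 9 had a labelled peak, among them BTRC, CRY1, CRY2, CSNK1D, NR1D1, PER3 and TIMELESS. NR1D1, the nuclear receptor REV-ERBα that represses ARNTL, had the highest 2, of 49 and 44, the first of them 3658 bp wide (rank 92). CSNK1D, a kinase of PER proteins, had a peak of 1733 bp. Of the 4 genes of PAR bZIP output factors and their antagonist NFIL3, 3 had a labelled peak, namely DBP, TEF and NFIL3. The DBP peak spanned 5534 bp, rank 11 of the list, and was 55 high (rank 319), and the TEF peak spanned 1608 bp and was 40 high. DBP and TEF are known outputs of the clock. Over the 39 labelled peaks of the 33 genes, the median height was 29 and the median width 1373 bp, against 26 and 1108 bp for all labelled peaks. The members' 9 labelled peaks had medians of 35 and 1672 bp.

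**Figure D5:**
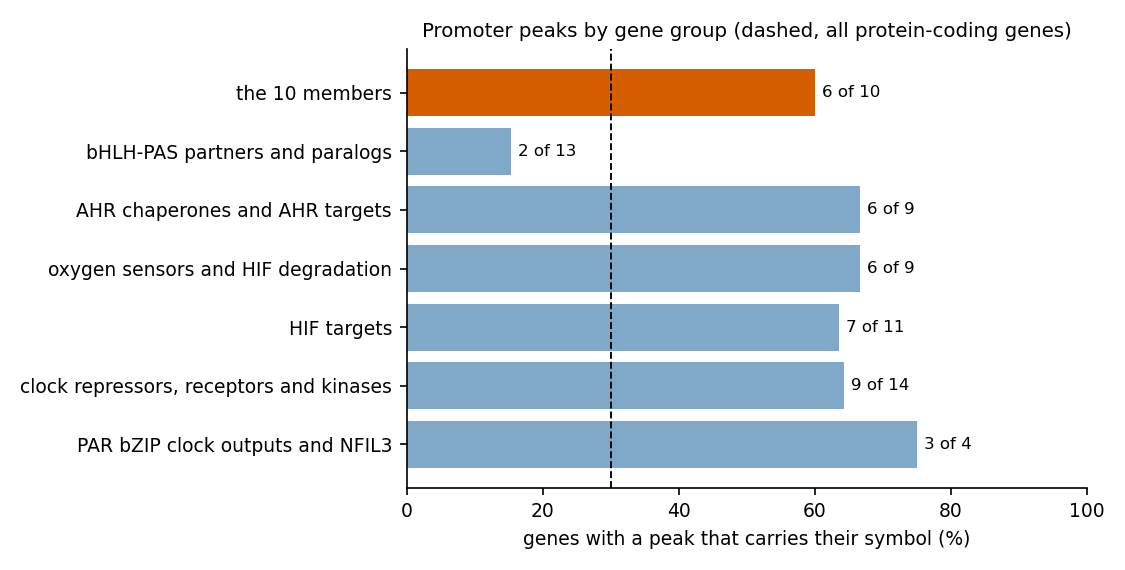
Share of genes (%) with a peak that carries their symbol, for the 10 members and for each group of pathway genes, with the counts beside the bars and a dashed line at the 30% of all protein-coding genes. The members stand at 6 of 10 and the bHLH-PAS partners and paralogs at 2 of 13, below the dashed line.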

How the data were processed

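Per the authors' methods, reads passed Trimmomatic and were mapped to hg19 by Bowtie2, SAMtools removed duplicates, blacklisted reads were dropped, and SEACR, set to norm union, called peaks over the paired controls. Peaks reproducible between replicates (IDR under 0.05) were kept. The authors deposited 1 list with a score, which is the largest signal (height), and a total signal for each peak. The meaning of these columns was taken from the values, since the total was below height times width in all 15412 peaks. Whether that setting or another normalization changed the deposited values, or replicates were pooled in them, is not given in the sources used here, and depth is unknown. In 34 peaks, the one at SNORD118 included, the end of the largest-signal interval is missing and its start was used as apex. Positions are printed as listed, and a start could be off by 1 base.

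The authors gave a peak a gene symbol where its apex overlapped a promoter of the UCSC known genes. Start sites, introns and UTRs came from GENCODE release 44 on GRCh37. The highest or widest peak has rank 1, and ties share a rank. The members and lists were chosen with earlier results of these data known. All members, BHLHE40-AS1 and every peak of theirs are named, pathway genes with values for the 2 highest and 2 widest peaks of each group, and the 5 peaks most like the BHLHE40-AS1 peak by log2 height and width in units of their SDs. Other genes only mark a place. Some items are not reported here. The motif search was tested on simulated sequence. Analyses used Python 3.11.15, numpy 2.4.6, pandas 2.3.3, scipy 1.17.1, pysam 0.24.0, samtools 1.23.1 and matplotlib 3.10.9.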

Additional observations from a re-analysis of the deposited data

How the results depend on the processing

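The count of members with a labelled peak was 5 to 7 of 10 under 6 alternatives. The number of peaks at the members was 17 to 28 under 5, and the count of pathway genes 22 to 37 of 60 under 2. All were within 1.5 times the values given. Under these alternatives, the share of all protein-coding genes is given only for a peak over a start site (38.3%). Whether the difference from background held under the others was not tested. The members' median height was above 77.9% of the list (Wilson 95% interval 77.3 to 78.6%, counting of peaks only). Intervals of this kind do not carry the spread among the members' own labelled peaks. The median stood above 85.7% by total signal, 65.6% by mean signal per base and 74.5% by height among labelled peaks. The median width, above 88.2% (87.7 to 88.7%), stood above 80.6% among labelled peaks, 84.5% with peaks under 1 kb apart merged and 90.7% with only the widest peak of each member, the last chosen after seeing the data. The E-box CACGTG was in 4 of the 25 peaks near the apex (10.8% of the whole list). It was in 2 around the centre (9.72%) and in 8 over whole peaks (21.0%). No paired analysis was possible because values of single replicates are not part of the list, which also means that none could be left out in turn. With depth unknown, a member without a peak may lie under the calling threshold.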
